A study of Rattus norvegicus with 27 samples.

Results

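The genes Slc2a1, Hk2, Ldha and Vegfa, which serve glucose use and the response to low oxygen, were followed through cultures of rat lung fibroblasts on a soft and on a rigid surface. They are 4 of the 32753 gene IDs in the deposited count table and were chosen by Ensembl ID: ENSRNOG00000007284 (Slc2a1), ENSRNOG00000006116 (Hk2), ENSRNOG00000013009 (Ldha) and ENSRNOG00000019598 (Vegfa). The symbols come with that choice and could not be checked against the files, which hold IDs alone. The cells were primary fibroblasts from the lungs of Sprague-Dawley rats, an outbred stock, taken with magnetic beads against CD90 (Thy-1). They grew in MucilAir medium on polydimethylsiloxane (PDMS), a silicone gel of 3 to 5 kPa, or on plastic, each coated with rat tail collagen I, and their RNA was sequenced. The 27 libraries form 7 groups. PDMS was sampled at days 2, 4, 7 and 14 and plastic at days 4, 7 and 14, with 3 libraries for Plastic day 7 and 4 for every other group. The count table heads every column as wild type (WT) and monoculture, and the labels name no drug in any group. The labels do not tie a library to an animal or a cell isolation, and the p-values thus weigh a difference against a spread between libraries that may in part be technical.

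Glucose enters most cells through facilitative transporters, of which Slc2a1 (GLUT1) is the widespread basal form. Hexokinase 2, the product of Hk2, phosphorylates the sugar and so traps it for glycolysis, and the A subunit of lactate dehydrogenase, from Ldha, turns the end product pyruvate into lactate. Vegfa encodes a secreted growth factor that acts on receptors of endothelial cells and drives vessel growth. All 4 genes are textbook targets of the hypoxia-inducible factors, which are stabilised when oxygen is scarce and bind the cores ACGTG or GCGTG in DNA. Serum, growth factors and proliferation also raise several of them in fibroblasts.

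The 250 bases before each annotated start are shown because 3 of the 4 genes were called lower in both courses described below. They come from the RefSeq promoter table of assembly GRCr8, matched by symbol, which covered 4 of 4 members. Each is given in the direction of the gene, 5′ to 3′, and capitals mark the cores ACGTG and GCGTG on either strand. For Vegfa the table holds 2 starts, and the one given first is printed.
Slc2a1 (chr5:138002272-138002521, + strand): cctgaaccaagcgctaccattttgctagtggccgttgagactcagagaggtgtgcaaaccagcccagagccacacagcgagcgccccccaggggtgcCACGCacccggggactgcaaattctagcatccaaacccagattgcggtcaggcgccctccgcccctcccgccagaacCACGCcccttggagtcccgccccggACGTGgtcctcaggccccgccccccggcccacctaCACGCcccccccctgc
Hk2 (chr4:116841276-116841525, - strand): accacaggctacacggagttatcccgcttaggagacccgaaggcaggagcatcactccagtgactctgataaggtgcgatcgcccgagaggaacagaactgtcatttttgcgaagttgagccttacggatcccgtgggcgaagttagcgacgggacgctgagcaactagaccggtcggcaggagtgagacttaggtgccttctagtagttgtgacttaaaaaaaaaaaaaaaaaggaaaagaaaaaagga
Ldha (chr1:106507842-106508091, + strand): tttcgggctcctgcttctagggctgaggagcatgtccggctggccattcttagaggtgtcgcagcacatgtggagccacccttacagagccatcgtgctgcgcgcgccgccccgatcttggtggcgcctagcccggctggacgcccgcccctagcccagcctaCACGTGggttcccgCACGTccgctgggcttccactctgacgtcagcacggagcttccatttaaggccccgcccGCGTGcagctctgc
Vegfa (chr9:22452604-22452853, + strand): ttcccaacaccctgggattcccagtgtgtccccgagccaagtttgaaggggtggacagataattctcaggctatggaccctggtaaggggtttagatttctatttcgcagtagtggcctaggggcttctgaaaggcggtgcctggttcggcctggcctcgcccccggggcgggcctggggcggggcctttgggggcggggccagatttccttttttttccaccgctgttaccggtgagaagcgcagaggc

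The Slc2a1 window held 4 cores, 1 ACGTG and 3 GCGTG. The Ldha window also held 4 cores, 3 ACGTG and 1 GCGTG, and 2 of its ACGTG matches are the strands of a single E-box, CACGTG. In the windows of Hk2 and Vegfa, including the Vegfa start that is not shown, 0 cores were found. Of 33469 promoter windows of this length in the table, 16.6% held ACGTG, 25.9% held GCGTG, 36.7% held either core and 5.59% held CACGTG. The bases G and C made up 68.4% of the Slc2a1 window, 66.4% of Ldha, 60.4% of the printed Vegfa window and 49.6% of Hk2. The median of all windows was 51.2%, and the shares above are not matched for this content. A match is a description of letters and not a binding site, and 0 matches say only that these letters are not in these windows.

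The libraries held 17.3 to 25.3 M counts (M, mega), and each member had between 316 and 18923 counts per library. Counting error was therefore at most 5.63% of a value (Vegfa in Plastic day 14 replicate 4), and in each of the 28 gene and group combinations it was below the spread between replicates. Values are given in CPM, counts per M of the library size after scaling by TMM, a trimmed mean that sets most genes level between libraries. CPM does not correct for gene length, so levels are compared between groups and never between genes. Plastic day 4 replicate 3 and Plastic day 14 replicate 4 lay farthest from the rest of their groups, with a mean distance of 1.24 and 1.11 in log2 CPM where the median pair of replicates lay 0.82 apart. Plastic day 4 replicates 1 and 2, and Plastic day 14 replicates 2 and 3, were closely alike (0.32 and 0.38) but differed by more than sampling noise, with a chi-square per degree of freedom of 8.71 and 9.23 against 36.8 to 446 for other pairs, and were kept apart. Fibroblast markers and markers of other cell types were not analysed here, because the IDs could be paired with no symbols other than those of the members. In bulk RNA a lower value cannot be assigned to fewer cells of a type or to less RNA per cell, since these cannot be told apart.

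Slc2a1, Hk2 and Vegfa fell with days in culture on both surfaces, and Ldha was not called in either course. From day 2 to day 14 on PDMS, 3 of the 4 members were called lower and 0 higher (edgeR quasi-likelihood test, adjusted p under 0.05 over 14258 genes, n = 4 and 4). Of all genes tested, 27.3% were called lower in that comparison, 24.3% higher and 51.6% in either direction. From day 4 to day 14 on plastic, the same 3 members were called lower and 0 higher (n = 4 and 4), against 18.3% of all genes called lower, 14.3% higher and 32.6% in either direction. Without the 2 libraries that stand apart these 3 were again the members called on plastic. Genes called higher made up 47% and 43.9% of the calls in these courses, and 35.9% and 27.1% when libraries were scaled by their size alone, which moved the median log2 fold change of all genes to -0.20 and -0.21. The median log2 fold change of the 4 members was -0.78 on PDMS from day 2 and -0.79 on plastic from day 4, where the medians of all genes were -0.05 in both. No plastic day 2 library was analysed here (the table has 1 column headed plastic day 2, left out because no listed sample matches it), so these courses differ in their starting day. From day 4 to day 14 on PDMS, the span that matches the plastic course, 0 of the 4 members were called by edgeR or DESeq2, 1 had an unadjusted p under 0.05 (as had 6024 of the 14258 genes), and all 4 estimates were negative (median -0.37, all genes -0.03). In that comparison 28.6% of all genes were called, 15.2% of all genes lower. Slc2a1 lay lower at day 14 without overlap, as did 17.1% of all genes, and with these groups fitted alone it was called (-0.33, edgeR adjusted p = 0.0387).

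**Figure D1:**
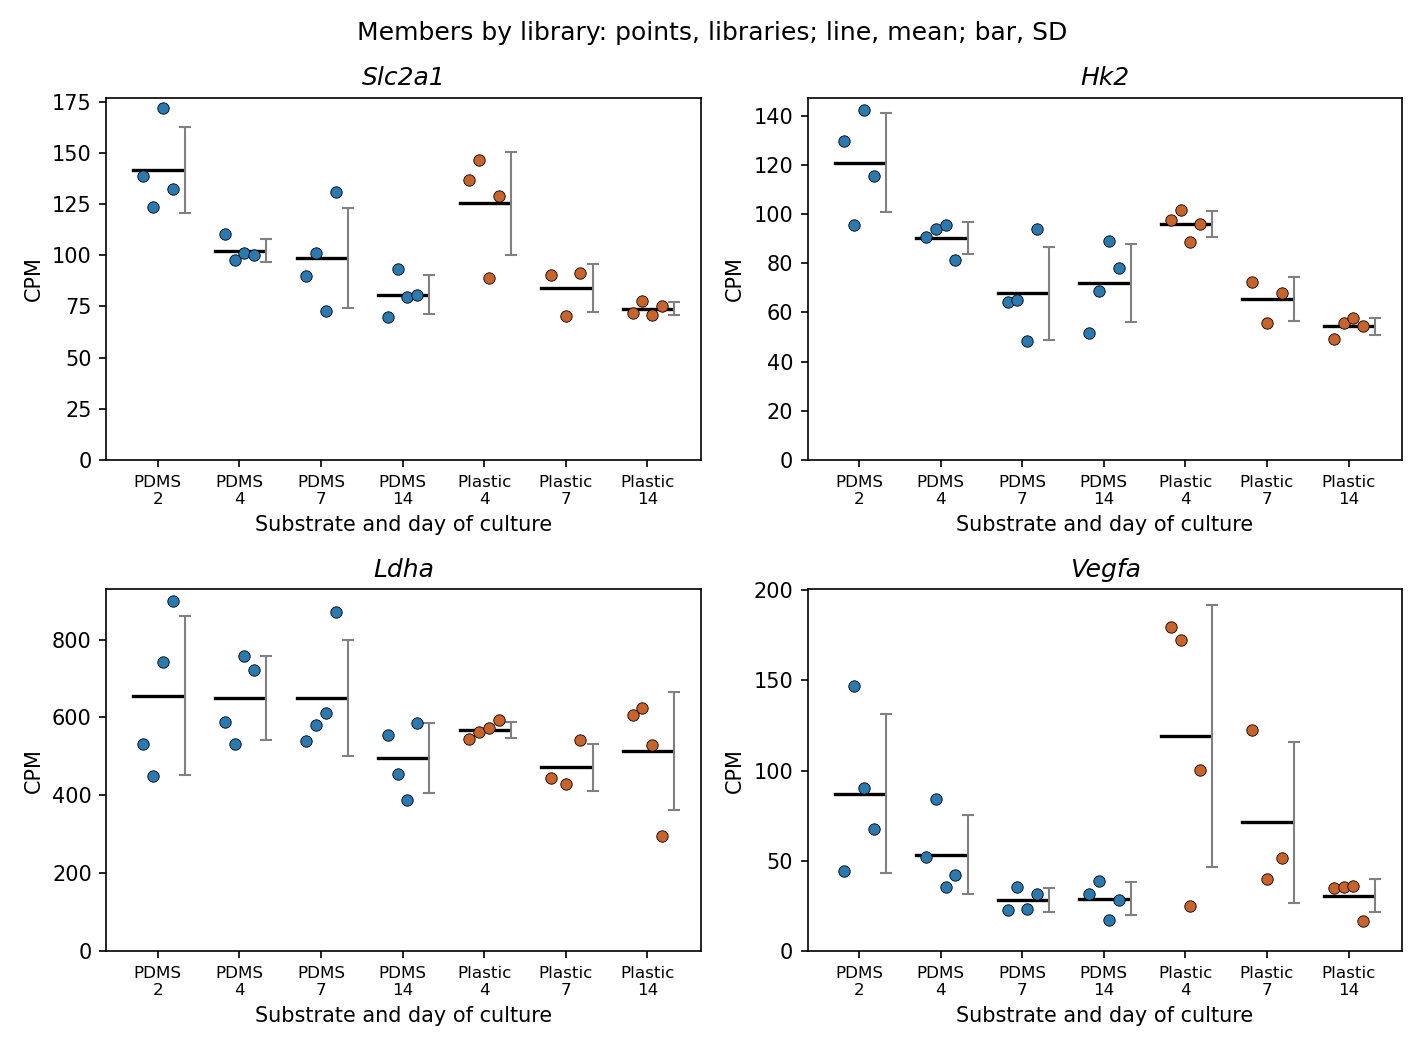
CPM of Slc2a1, Hk2, Ldha and Vegfa (y axis, from 0) in each of the 27 libraries by substrate and day of culture (x axis), with PDMS in blue and plastic in orange, points as libraries in replicate order, horizontal lines as group means and grey bars as SD. Slc2a1 and Hk2 are highest at PDMS day 2 and lowest at Plastic day 14, Ldha shows overlapping groups, and Vegfa ranges from 24.8 to 179 CPM within Plastic day 4.

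Slc2a1, the glucose transporter, was highest at PDMS day 2, where replicates 1 to 4 stood at 139, 123, 172 and 132 CPM. At PDMS day 4 they stood at 110.1, 97.5, 101 and 100.2 CPM, below every day 2 library, as in 4.11% of all genes. This step missed the threshold (log2 fold change -0.47 ± 0.16, SE; edgeR adjusted p = 0.0575, with 10% of all genes called). Over 14 alternatives its adjusted p ran from 0.0216 with DESeq2 to 0.185, and without PDMS day 2 replicate 4 it was 0.0434. PDMS day 7 spread more widely, at 89.9, 101, 73 and 131 CPM. PDMS day 14 held 69.6, 93.3, 79.5 and 80.6 CPM. All 4 of these lay below all 4 day 2 libraries, as in 20.2% of all genes, and the fall from 141 ± 21.1 to 80.7 ± 9.71 CPM (mean ± SD, n = 4 each) was 1.75-fold (log2 fold change -0.81 ± 0.16; edgeR adjusted p = 0.000299). The later fitted steps were -0.05 ± 0.16 from day 4 to day 7 (edgeR adjusted p = 0.965) and -0.29 ± 0.16 from day 7 to day 14 (adjusted p = 0.237). Neither was called.

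On plastic, Slc2a1 stood at 137, 146, 88.7 and 129 CPM in replicates 1 to 4 of day 4. Replicate 3, the library that stands apart, was lowest. Day 7 replicates 1, 3 and 4 held 90.4, 70.4 and 91.2 CPM, and day 14 replicates 1 to 4 held 71.5, 77.8, 70.9 and 75.1 CPM, the tightest group of this gene. No day 14 library reached the lowest day 4 library, as in 14.3% of all genes, and the fall from 125 ± 25.4 to 73.8 ± 3.21 CPM (n = 4 each) was 1.70-fold (log2 fold change -0.76 ± 0.16; edgeR adjusted p = 0.00144). The step from day 4 to day 7 on plastic had a log2 fold change of -0.58 ± 0.17 and was not called (edgeR adjusted p = 0.149, n = 4 and 3), in a comparison where 0% of genes were called by edgeR (2665 at an unadjusted p under 0.05, 388 by DESeq2). Without Plastic day 4 replicate 3 it was -0.68 and was called (edgeR adjusted p = 0.0331; 0.0308 to 0.365 over 15 alternatives).

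Hk2, the hexokinase, was also highest at PDMS day 2 and lowest at Plastic day 14. Its estimated steps on PDMS after day 4 were unlike those of Slc2a1, a difference that was not tested. PDMS day 2 held 129.8, 95.6, 142 and 115 CPM, and PDMS day 4 held 90.5, 93.8, 95.7 and 81.3 CPM, so that replicate 2 of day 2 lay within reach of day 4. PDMS day 7 held 64.2, 65.2, 48.3 and 93.8 CPM and PDMS day 14 held 51.7, 68.8, 89.1 and 78.1 CPM. The later groups overlapped each other, and none of the PDMS day 14 libraries reached the lowest of day 2, as in 20.2% of all genes. The fall from 121 ± 20.1 CPM at day 2 to 71.9 ± 15.8 CPM at day 14 (n = 4 each) was 1.68-fold (log2 fold change -0.75 ± 0.17; edgeR adjusted p = 0.000907). By estimate, most of it lay before day 7: the fitted steps were -0.42 ± 0.17 from day 2 to day 4 (edgeR adjusted p = 0.101), -0.41 ± 0.17 from day 4 to day 7 (adjusted p = 0.292, 0.147% of genes called) and 0.08 ± 0.17 from day 7 to day 14 (adjusted p = 0.773, 5.53% called). None of the 3 steps was called by itself.

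On plastic, Hk2 stood at 97.6, 102, 88.6 and 95.9 CPM at day 4, a narrow range with no low library. Day 7 held 72.5, 55.5 and 68.1 CPM, and day 14 held 49.4, 55.8, 57.6 and 54.6 CPM. All day 4 libraries lay above all later plastic libraries. The same held in 8% of all genes for day 7 and in 14.3% for day 14. The step from day 4 to day 7 had a log2 fold change of -0.55 ± 0.18 and was not called (edgeR adjusted p = 0.164, n = 4 and 3). Over 15 alternatives its adjusted p ran from 0.0816 to 0.398. From day 4 to day 14 Hk2 fell 1.77-fold, from 95.9 ± 5.47 to 54.3 ± 3.51 CPM (n = 4 each; log2 fold change -0.82 ± 0.17; edgeR adjusted p = 0.00128).

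Ldha, which makes lactate, differed little between groups beside its spread. Its libraries stood at 532, 451, 743 and 899 CPM at PDMS day 2, at 588, 532, 757 and 723 at PDMS day 4, at 540.2, 580.2, 610.3 and 869.6 at PDMS day 7 and at 554, 454, 389 and 585 at PDMS day 14. Each of these groups overlaps each other one. Plastic day 4 was the tightest, at 545, 562, 574 and 594 CPM, Plastic day 7 held 446, 428 and 542, all below Plastic day 4 as in 8% of all genes, and Plastic day 14 held 607, 626, 529 and 295. The last value, from Plastic day 14 replicate 4, is the lowest of the 27. The step from day 4 to day 7 on plastic was -0.27 ± 0.24 in log2 and was not called (edgeR adjusted p = 0.552). From day 2 to day 14 on PDMS the log2 fold change was -0.40 ± 0.22 (edgeR adjusted p = 0.134; 95% interval -0.87 to 0.06), and it was -0.56 and called without PDMS day 2 replicate 2 (adjusted p = 0.0473; 0.0412 to 0.544 over 14 alternatives). From day 4 to day 14 on plastic it was -0.15 ± 0.22 (edgeR adjusted p = 0.644; interval -0.61 to 0.32), and 0.05 without Plastic day 14 replicate 4. Group took 29.9% of the sum of squares of log2 CPM in Ldha, against 72.5% in Slc2a1, 76.2% in Hk2 and 54.3% in Vegfa. Part of any such share arises by chance, and the shares of other genes were not computed. Mammalian genomes hold processed pseudogenes of Ldha, and the treatment of reads shared with near-identical copies is not given in the sources used here. Whether such reads bear on the counts of Ldha was not tested.

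Vegfa, the secreted ligand, had the largest changes and the widest spread of the 4, with a biological coefficient of variation of 0.457, above that of 75.8% of the genes tested. PDMS day 2 held 44.2, 147, 90.2 and 67.8 CPM, and PDMS day 4 held 52.1, 84.4, 35.3 and 42 CPM. PDMS day 7 held 22.7, 35.7, 23.2 and 31.6 CPM and PDMS day 14 held 31.5, 39, 17.3 and 28.6 CPM. These late groups overlapped each other, and every day 14 library lay below every day 2 library, as in 20.2% of all genes. The fall from 87.3 ± 44.1 CPM at day 2 to 29.1 ± 9.04 CPM at day 14 (n = 4 each) was 3.00-fold (log2 fold change -1.58 ± 0.48; edgeR adjusted p = 0.00903). The estimate was -0.71 ± 0.47 from day 2 to day 4, -0.92 ± 0.48 from day 4 to day 7 and 0.04 ± 0.47 from day 7 to day 14, none of them called (edgeR adjusted p = 0.34, 0.462 and 0.965).

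The Plastic day 4 libraries of Vegfa stood at 179, 173, 24.8 and 100.4 CPM. The closely alike replicates 1 and 2 were highest and replicate 3, the one that stands apart, was below every library of Plastic day 14 except replicate 4. Plastic day 7 held 122, 40.2 and 51.5 CPM, and Plastic day 14 held 34.7, 35.3, 36 and 17 CPM. From day 4 to day 14 Vegfa fell from 119 ± 72.4 to 30.8 ± 9.19 CPM (n = 4 each), which is 3.88-fold (log2 fold change -1.96 ± 0.49; edgeR adjusted p = 0.00496), although the groups overlapped through replicate 3. The fall was -1.93 and just missed the threshold when these groups were fitted alone (edgeR adjusted p = 0.0502; 0.00037 to 0.0502 over 16 alternatives), and it was -2.26 without Plastic day 4 replicate 3. From day 7 to day 14 on plastic the libraries did not overlap, and the log2 fold change of -1.21 ± 0.51 was not called (edgeR adjusted p = 0.273, n = 3 and 4), and it was -0.58 without Plastic day 7 replicate 1. Groups did not overlap with lower values at day 14 in 7.22% of all genes, and 0.0842% were called.

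**Figure D2:**
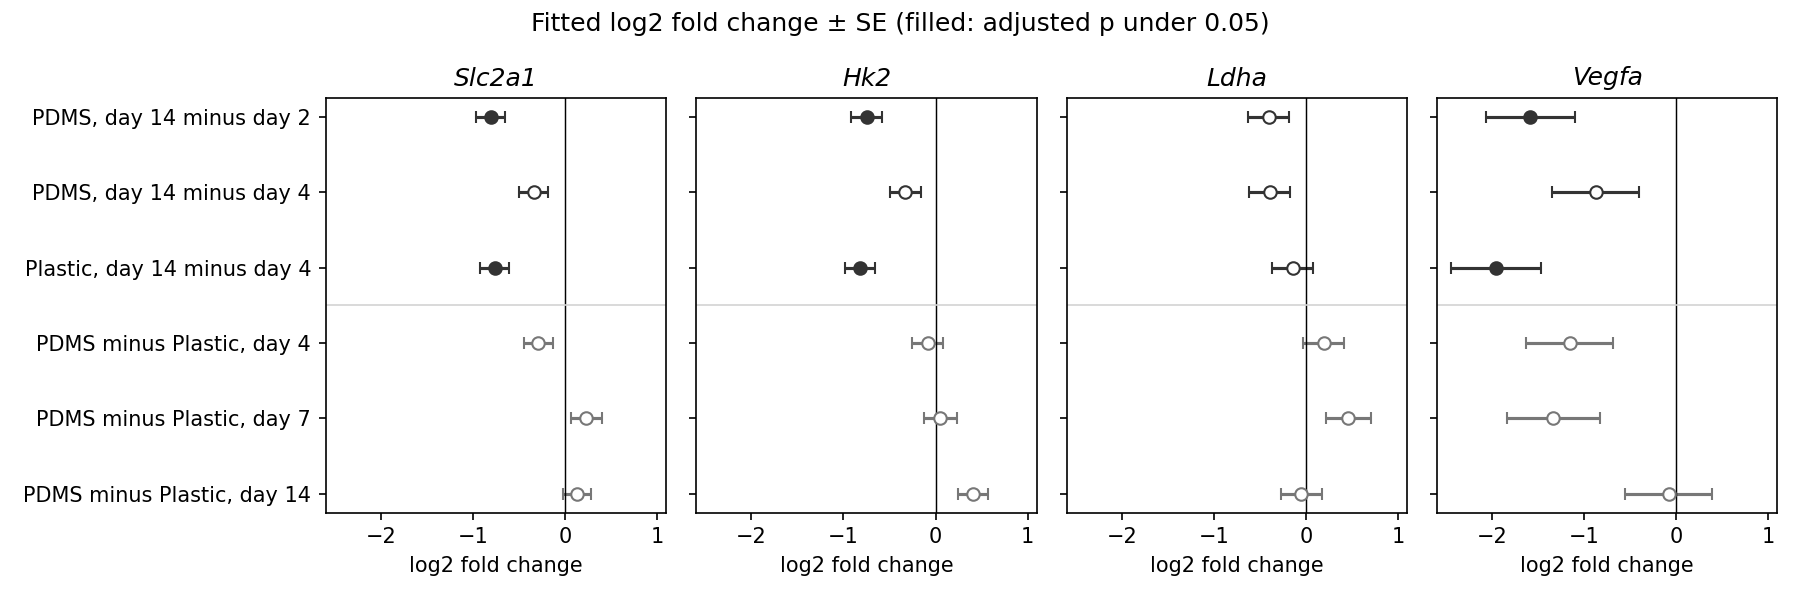
Fitted log2 fold changes with SE (x axis, edgeR) for Slc2a1, Hk2, Ldha and Vegfa (panels) in 3 courses and 3 substrate comparisons (y axis), with filled circles where the adjusted p was under 0.05. Filled circles stand at PDMS day 14 minus day 2 and Plastic day 14 minus day 4 for Slc2a1, Hk2 and Vegfa, from -0.75 for Hk2 to -1.96 for Vegfa, and every substrate comparison is open.

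In each of the 4 genes the 7 groups, put in order of their mean, formed a chain in which all 6 neighbouring pairs overlapped. For Slc2a1 the order ran from PDMS day 2 (141 CPM) through Plastic day 4 (125) and the PDMS groups of day 4 (102) and day 7 (98.7) to Plastic day 7 (84), PDMS day 14 (80.7) and Plastic day 14 (73.8). For Hk2 it ran from PDMS day 2 (121) through Plastic day 4 (95.9), then the PDMS groups of day 4 (90.3), day 14 (71.9) and day 7 (67.9), to plastic at day 7 (65.4) and day 14 (54.3). These orders share their ends and their early groups. For Vegfa the order was Plastic day 4 (119), PDMS day 2 (87.3), Plastic day 7 (71.4), PDMS day 4 (53.4), Plastic day 14 (30.8), PDMS day 14 (29.1) and PDMS day 7 (28.3). For Ldha the PDMS groups of day 2 (656), day 7 (650.1) and day 4 (649.9) came first, then plastic at day 4 (569) and day 14 (514), PDMS day 14 (496) and Plastic day 7 (472).

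None of the 4 members was called between PDMS and plastic at day 4, day 7 or day 14 (edgeR, n = 4 and 4, 4 and 3, and 4 and 4), and none by DESeq2. At each day 1 member had an unadjusted p under 0.05, Vegfa at days 4 and 7 and Hk2 at day 14. Of all genes edgeR called 0% at day 4, 0.849% at day 7 and 0% at day 14. At an unadjusted p under 0.05 stood 1246, 2532 and 1266 genes, and DESeq2 called 24, 781 and 113. Vegfa was lower on PDMS by estimate at day 4, with a log2 difference (PDMS minus plastic) of -1.16 ± 0.48 (edgeR adjusted p = 0.448; 95% interval -2.15 to -0.17), and at day 7, with -1.33 ± 0.51 (adjusted p = 0.165; interval -2.39 to -0.28). At day 7 all 4 PDMS libraries lay below all 3 plastic libraries, as in 10% of all genes, and without Plastic day 7 replicate 1 the difference was -0.70. Intervals are for 1 gene at a time and unadjusted, so an interval without 0 can stand beside an adjusted p above the threshold. At day 14 the Vegfa difference was -0.08 ± 0.47 (edgeR adjusted p = 0.978; interval -1.07 to 0.91). Averaged over the 3 days, a contrast added after seeing the data, it was -0.86 ± 0.28 and missed the threshold (edgeR adjusted p = 0.0647), where 7.04% of all genes were called, and 5.41% of all genes lower on PDMS. Over 31 alternatives its adjusted p ran from 0.0069 to 0.221. It passed with DESeq2 (-0.87, adjusted p = 0.025), with the replicate block (-0.88, edgeR adjusted p = 0.0312), without both libraries that stand apart (-1.02, adjusted p = 0.0069), and without Plastic day 4 replicate 3 (-0.95, edgeR adjusted p = 0.0118), Plastic day 7 replicate 3 (-0.95, adjusted p = 0.0438) or Plastic day 14 replicate 4 (-0.92, adjusted p = 0.048).

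Slc2a1 had log2 differences of -0.29 ± 0.16 at day 4 (edgeR adjusted p = 0.638; 95% interval -0.62 to 0.03), 0.23 ± 0.17 at day 7 (adjusted p = 0.501; -0.12 to 0.59) and 0.13 ± 0.16 at day 14 (adjusted p = 0.869; -0.20 to 0.46). Hk2 had -0.09 ± 0.17 at day 4 (edgeR adjusted p = 0.993; -0.43 to 0.26), 0.05 ± 0.18 at day 7 (adjusted p = 0.906; -0.32 to 0.43) and 0.41 ± 0.17 at day 14 (adjusted p = 0.463; 0.06 to 0.75). Ldha had 0.19 ± 0.22 at day 4 (edgeR adjusted p = 0.955; -0.27 to 0.66), 0.46 ± 0.24 at day 7 (adjusted p = 0.33; -0.04 to 0.97) and -0.05 ± 0.22 at day 14 (adjusted p = 0.969; -0.52 to 0.41). Of the intervals of Slc2a1 and Hk2, that of Hk2 at day 14 reached farthest, to 0.75, and that of Ldha at day 7 reached 0.97. None of these values shows that the surfaces act alike.

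The call on plastic and its absence on PDMS from day 4 to day 14 do not by themselves show a difference between the surfaces. Tested directly, the PDMS change minus the plastic change was 0.42 ± 0.22 for Slc2a1, 0.49 ± 0.23 for Hk2, -0.25 ± 0.32 for Ldha and 1.08 ± 0.67 for Vegfa (log2, SE). The edgeR adjusted p-values were 0.764, 0.73, 0.934 and 0.802, with 0% of all genes called (971 at an unadjusted p under 0.05, 4 by DESeq2). Contrasts of the same kind from day 4 to 7 and from day 7 to 14, chosen once the data had been seen, also called 0 members (0% of all genes in both, 419 and 980 at an unadjusted p under 0.05, and 0 and 1 by DESeq2), with the lowest adjusted p at 0.994 and 0.716, and 1 and 0 members at an unadjusted p under 0.05.

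**Figure D3:**
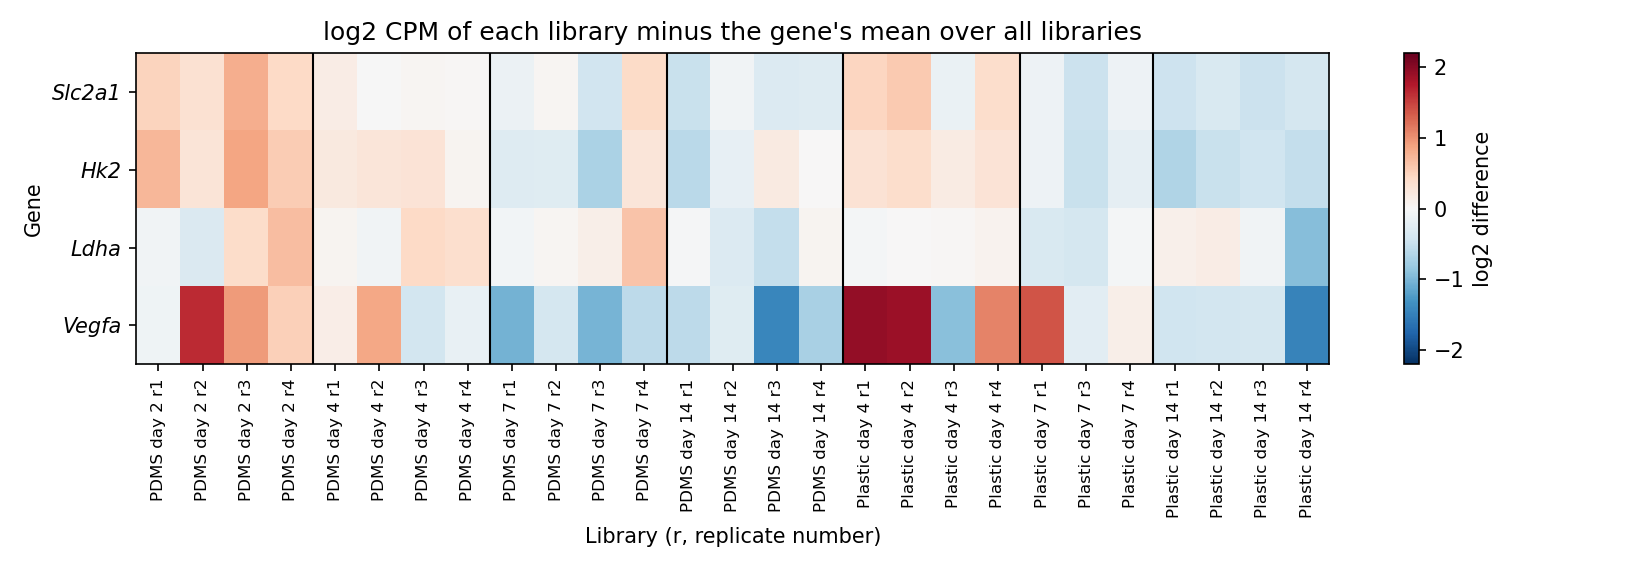
Log2 CPM of each library minus the gene's mean over the 27 libraries (colour, red higher and blue lower), with the 4 genes as rows and the libraries, grouped by black lines, as columns. Slc2a1 and Hk2 are red at PDMS day 2 and blue at Plastic day 14, and Vegfa has the deepest colours, from Plastic day 4 replicates 1 and 2 (179 and 173 CPM) to Plastic day 14 replicate 4 (17 CPM).

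Slc2a1 and Hk2 also moved together from library to library inside the groups. Over the 27 libraries, the deviations of their log2 CPM from the group means had a Pearson r of 0.73 (permutation p within groups = 0.00061, adjusted 0.00366 over 6 pairs of members) and a Spearman rho of 0.65 (permutation p = 0.00162, adjusted 0.00972). The deviations had the same sign in 20 of 27 libraries. Those of Slc2a1 and Vegfa also did in 20 of 27, so this count does not set the pair apart. In PDMS day 7, replicate 4 was highest and replicate 3 lowest for both genes. Without the 2 libraries farthest from the median of Slc2a1, PDMS day 7 replicate 4 and Plastic day 4 replicate 3, r was 0.71. Without the 2 farthest from the median of Hk2, PDMS day 7 replicates 3 and 4, it was 0.57, and with 1 library of each closely alike pair left out it was 0.74. All libraries share their scaling, and what animals or isolations they share is not labelled, so the points may not be independent. Correlations of deviations were not computed for genes other than the members, so whether this r is unusual is not known.

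**Figure D4:**
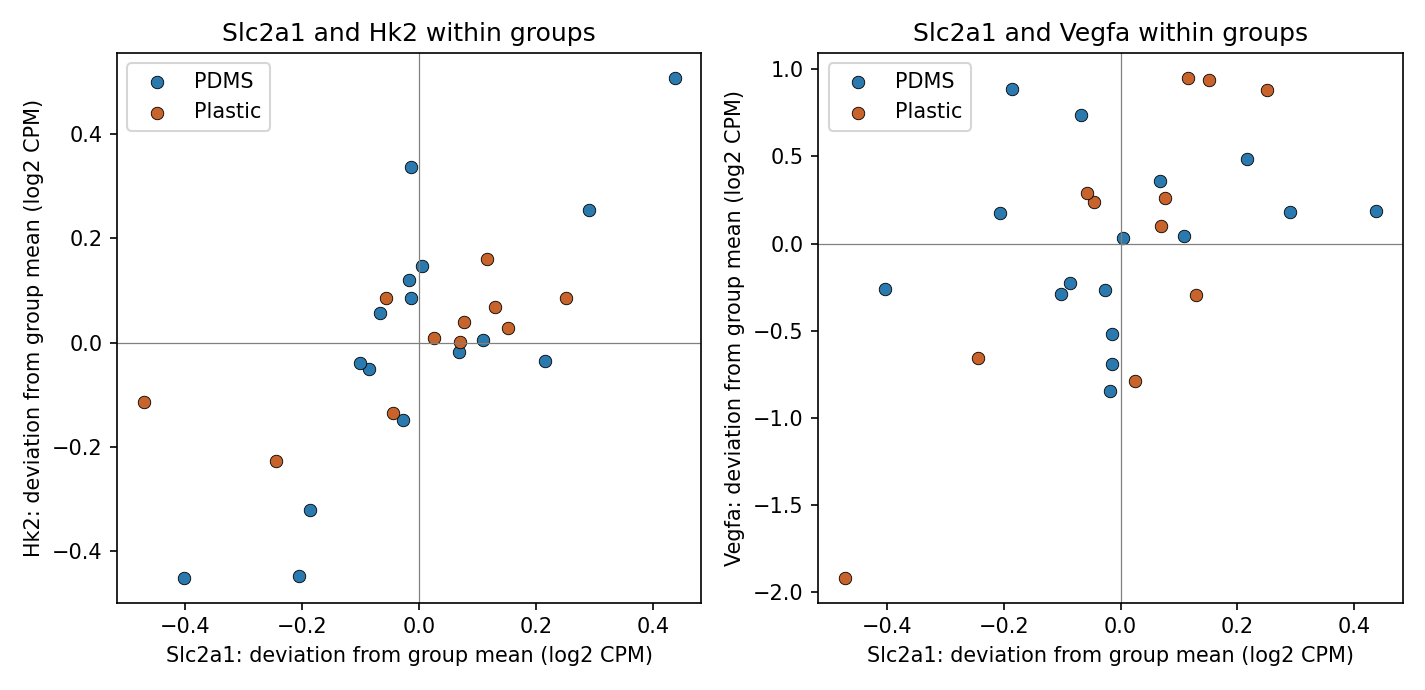
Deviation of log2 CPM from the group mean in each of the 27 libraries, Slc2a1 on the x axis against Hk2 (left) and Vegfa (right) on the y axis, with PDMS in blue and plastic in orange. The Slc2a1 and Hk2 points run along a diagonal (r = 0.73), and the Vegfa plot has 1 far point at its lower left, Plastic day 4 replicate 3.

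The other pairs showed no such relation after adjustment. Slc2a1 and Vegfa had an r of 0.50 (permutation p = 0.042, adjusted 0.126) and a rho of 0.39 (permutation p = 0.092, adjusted 0.276), and r was 0.33 without the 2 libraries named above, so it rests in part on them. The 4 pairs left had r from 0.06 to 0.22 and adjusted p-values of 0.516 to 0.74. Ldha had its largest r with Slc2a1 (0.22).

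Taken over group means and deviations together, Hk2 and Slc2a1 stood near each other among all genes. Of the 10509 other genes with a mean of at least 5 CPM, Slc2a1 ranked 3 by Pearson r of log2 CPM with Hk2 over the 27 libraries (r = 0.88), and Hk2 ranked 28 by r with Slc2a1. Over the 7 group means alone, r was 0.94, Slc2a1 ranked 283 by r with Hk2, and Hk2 ranked 498 by r with Slc2a1. Vegfa ranked 1202 and Ldha 3024 by r with Slc2a1 over the libraries (0.67 and 0.43). These ranks are descriptions, and the genes above them are not named because their IDs could not be paired with symbols.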

How the data were processed

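The deposited table holds whole-number counts by Ensembl gene ID, unscaled, with 1 column for each library. Per the submitters' processing notes, FastQC 0.11.2, Cufflinks 2.2.1, STAR and DESeq2 were used, without roles. For the counting step, no program, strand setting, build or annotation is named (not given in the sources used here). The other deposited tables were not used here, nor was 1 count column, headed plastic day 2, that belongs to no listed sample. None of the IDs (0) matched the RefSeq table, so the pathway and marker lists written as symbols could not be tested.

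In R 4.3.3 with edgeR 4.0.16, filterByExpr (a count of about 10, a total of 15) kept 14258 genes, libraries were scaled by TMM, and quasi-likelihood fits gave each group its own mean over the 27 libraries (20 residual degrees of freedom). P-values were two-sided and adjusted by Benjamini-Hochberg over all genes. Dividing a log2 fold change by the square root of its F gave the SE. The 95% intervals are the estimate ± 2.09 SE (t quantile with 20 degrees of freedom), not adjusted for the number of genes. For log2 CPM the prior count was 2. The named genes are the 4 members. Members and lists were chosen with earlier results of these data known. Alternatives were DESeq2 1.42.0, other scalings, no filter, smaller fits, a replicate block, summed alike libraries and libraries left out.

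Correlations within groups used 100000 permutations within groups. Replicate numbers carry no stated meaning. For PDMS day 4 against day 2, deviations of same-numbered libraries correlated at 0.14 to 0.57 in all 4 pairs (other numbers, -0.52 to 0.43).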

Additional observations from a re-analysis of the deposited data

Results flagged for a closer look

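In Plastic day 14, Vegfa stood at 17 CPM in replicate 4 and at 34.7 to 36 CPM in the other 3 libraries. It was marked because the gap to its nearest neighbour took up 0.931 of the range of the group. This was 1 mark among 24 gene and group combinations with 4 libraries, where chance gives about 1.2. Plastic day 14 replicate 4 is among the libraries that stand apart over all genes, and it also held the lowest Ldha value (295 CPM).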

How the results depend on the processing

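The 3 calls from day 2 to 14 on PDMS and the 3 from day 4 to 14 on plastic held with every library left out in turn and with every other alternative run, except that Vegfa on plastic became -1.93 with its groups fitted alone (edgeR adjusted p = 0.0502). Dropping the filter on low counts changed no call or direction.

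Scaling by library size alone turned the log2 differences of Ldha and Vegfa between surfaces at day 14 to 0.048 and 0.021, Ldha from day 4 to 7 on PDMS to -0.040, and Vegfa from day 7 to 14 to -0.031. Under the same scaling Slc2a1 was called from day 2 to 4 on PDMS (-0.50, 1 member), Ldha from day 2 to 14 (-0.54), and Slc2a1 (-0.45) and Hk2 (-0.45) from day 4 to 14 (2 members). RLE factors and DESeq2 each called Slc2a1 from day 2 to 4 on PDMS (-0.50 in both, 1 member) and turned Ldha from day 4 to 7 to -0.0068. With the groups of a comparison fitted alone, Ldha from day 4 to 7 on PDMS was -0.0100, and Slc2a1 was called from day 4 to 14 (-0.33, 1 member). DESeq2 called Vegfa in the mean over days (-0.87, 1 member). With the closely alike libraries summed, Ldha at day 14 between surfaces was 0.0098.

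With the replicate block, Ldha on PDMS was 0.0018 from day 2 to 4 and -0.0068 from day 4 to 7, Vegfa was -0.020 from day 7 to 14, and Vegfa in the mean over days was called (-0.88, 1 member). The block changed no other member's call. Apart from PDMS day 4 against day 2, each contrast had at least 1 same-numbered pair with a correlation below 0.1. In no contrast did every library correlate best with its own number. Same-numbered pairs reached 0.76 for Plastic day 7 against 4 (other numbers, 0.52). They reached 0.58 for PDMS against plastic at day 4 (other numbers, 0.59). Whether a number marks a shared animal or isolation cannot be told from these correlations. The block moved the genes called from 21 to 3 for PDMS day 7 against 4 and from 12 to 35 for Plastic day 14 against 7.

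Without both libraries that stand apart, an alternative chosen after seeing the data, Slc2a1 was called from day 4 to 7 on plastic (-0.68, 1 member), Vegfa was called in the mean over days (-1.02, 1 member), Ldha from day 4 to 14 on plastic turned to 0.092, Slc2a1 in the mean over days to -0.0055, and the Vegfa interaction from day 4 to 7 to 0.19.

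With 1 library left out at a time, log2 differences between surfaces ran from -0.14 to 0.19 for Hk2 at day 7, from -0.24 to 0.056 for Ldha and -0.28 to 0.10 for Vegfa at day 14, and, in the mean over days, from -0.032 to 0.063 for Slc2a1 and -0.95 to -0.64 for Vegfa (0 to 1 members called). On PDMS from day 2 to 4 they ran from -0.57 to -0.36 for Slc2a1 and -0.18 to 0.18 for Ldha (0 to 1 members), from day 4 to 7 from -0.22 to 0.069 for Slc2a1 and -0.17 to 0.14 for Ldha, from day 7 to 14 from -0.048 to 0.28 for Hk2 and -0.13 to 0.22 for Vegfa, and from day 2 to 14 from -0.56 to -0.17 for Ldha (3 to 4 members). On plastic they ran from -0.68 to -0.46 for Slc2a1 from day 4 to 7 (0 to 1 members) and from -0.25 to 0.048 for Ldha from day 4 to 14. Interactions ran from -0.46 to 0.46 for Vegfa and -0.056 to 0.27 for Hk2 from day 4 to 7, and from -0.22 to 0.063 for Slc2a1 from day 7 to 14. For these results the cause was not tested.

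Counts of all genes called also varied with the processing. Over the alternatives other than single libraries left out they ran from 0 to 2414 (reported: 1428) for PDMS day 4 against 2, 3 to 428 (21) for day 7 against 4, 354 to 1998 (788) for day 14 against 7, 2375 to 5258 (4641) for Plastic day 14 against 4, 0 to 364 (12) for day 14 against 7 and 0 to 787 (0) for day 7 against 4. Between surfaces they ran from 0 to 293 (0) at day 4, 35 to 781 (121) at day 7, 0 to 113 (0) at day 14 and 485 to 1744 (1004) in the mean over days. For the interactions they ran from 0 to 4 (0). The counts for PDMS day 14 ran from 5337 to 7806 (7358) against day 2 and from 3421 to 4898 (4075) against day 4. Scaling by library size alone moved the share of calls that were higher from 17.4% to 41.7% at day 7 between surfaces, from 23.1% to 62.5% in the mean over days, from 52.9% to 40.2% and 46.8% to 32.1% for PDMS day 14 against days 7 and 4, and from 25% to 7.69% for Plastic day 14 against 7. It moved the median log2 difference of all genes between surfaces to 0.13 at day 7 and 0.11 at day 14, and those of PDMS day 14 against 4 and Plastic day 7 against 4 both to -0.15.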
